A study of Mus musculus with 4 samples.

Results

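Proteasome genes were examined in 4 populations of effector mouse CD4 T cells. Members were taken by symbol, as genes named Psma, Psmb, Psmc, Psmd, Psme, Psmf or Psmg, and each was read from its brightest probe set by the mean of the 4 arrays. There were 49 members among 18193 genes named on the array, and 47 of them reached a signal of 300 in at least 1 array. The 31 members of the 26S proteasome were 6 ATPases and 11 other subunits of the 19S regulatory particle, 7 alpha ring subunits, 4 structural beta subunits and the 3 constitutive catalytic beta subunits. The others were the 3 immunoproteasome catalytic subunits, 7 assembly chaperones, Psme1, a set of 3 activators and inhibitors (Psme3, Psme4 and Psmf1), and 4 genes that are not subunits of the proteasome of most cells.

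The 4 populations were CD30high Th17, CD30low Th17, CD30high Th1 and CD30low Th1 cells, with 1 array each. Splenic CD4 T cells were cultured for 6 days with an ovalbumin peptide and irradiated splenocytes from which T cells had been removed, and were then sorted by surface CD30, which belongs to the TNF receptor superfamily. Th17 cultures held IL-6, IL-1beta and IL-23 at 10 ng/ml each with antibodies to IL-4 and to IFN-gamma at 10 µg/ml each, whereas Th1 cultures held IL-2 at 30 U/ml, IL-12 at 100 U/ml and anti-IL-4 antibody at 1 µg/ml. Only the Th17 cultures therefore held a neutralizing antibody to IFN-gamma. The labels give CD44low CD62Lhi starting cells for the CD30high samples and CD44low CD62Llow ones for the CD30low samples, whereas the methods describe naive CD62Lhigh cells alone, so that a difference in starting cells and the CD30 gate cannot be told apart. The methods name DO11.10 and OTII T cell receptor transgenic mice, and the labels do not say which was used here.

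The 26S proteasome degrades ubiquitin-tagged proteins. Its 20S core is a stack of alpha and beta rings with the proteolytic sites on beta subunits, and the 19S particle binds, deubiquitinates, unfolds and feeds substrates into the core. Interferon-gamma is known to induce Psmb8, Psmb9 and Psmb10, which replace Psmb5, Psmb6 and Psmb7 in newly built cores to form the immunoproteasome, together with the PA28 activator, and the peptides it makes are loaded onto MHC class I molecules. Lymphocytes are known to carry immunoproteasomes without stimulation.

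All values below are linear probe set signals as deposited, and ratios were formed after raising any signal under 100 to 100. With 1 array per group there is no replicate error, no test across genes was possible and no difference has a replicate check. The only measure of error was the disagreement between probe sets of the same gene. Over 2928 genes with more than 1 bright probe set, the SD of a single log2 ratio by this measure was 0.20 for CD30high over CD30low in Th17 cells and 0.23 in Th1 cells, and 0.31 for Th17 over Th1 among CD30high cells and 0.29 among CD30low cells. It covers probe behaviour within an array and not the spread between cultures. Where a gene has a pair of lineage ratios below, the CD30high one comes before the CD30low one.

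The arrays were checked before the members were read. Il17a, the cytokine of Th17 cells, had signals of 14443 in CD30high Th17, 1398 in CD30low Th17, 49.4 in CD30high Th1 and 37.7 in CD30low Th1 cells, and Tbx21, the Th1 transcription factor, had 243 and 281 in CD30high and CD30low Th17 cells, against 2352 and 2189.8 in CD30high and CD30low Th1 cells. The transcript of CD30 itself (Tnfrsf8) had 132 in CD30high and 34.9 in CD30low Th17 cells, and 51.1 in CD30high and 13.3 in CD30low Th1 cells, so that only 1 array reached 100. The Y-linked Eif2s3y had 9.39 and 1.41 in CD30high and CD30low Th17 cells against 1640.0 and 1784 in CD30high and CD30low Th1 cells. The X-linked Xist had 22613 and 22350 in CD30high and CD30low Th17 cells, against 16222.5 and 14620 in CD30high and CD30low Th1 cells. The lineage comparison therefore also set apart cells of different Y-linked expression, while Xist was high in all 4 arrays. Whether the Th1 cells came from mice of both sexes was not tested. Markers of other cells moved with lineage and gate too. The summed signal of 6 fibroblast markers was 7759 and 1030.3 in CD30high and CD30low Th17 cells, against 287 and 248 in CD30high and CD30low Th1 cells, with Lum and Dcn as the only ones at 100 or more in any array. That of 7 macrophage and neutrophil markers was 2259 and 7571 in CD30high and CD30low Th17 cells, against 464 and 310 in CD30high and CD30low Th1 cells. S100a8 and S100a9 made up most of it in the Th17 arrays but read 18.1 or less in the Th1 arrays. The summed signal of 5 natural killer and CD8 T cell markers was 743 and 1013 in CD30high and CD30low Th17 cells, against 7062 and 9345 in CD30high and CD30low Th1 cells, in which Klrd1 and Klrk1 made up most of it. That of 7 T cell markers was 49145 and 58838 in CD30high and CD30low Th17 cells, against 68879 and 83574 in CD30high and CD30low Th1 cells. That of 5 B cell markers was 638 and 280 in CD30high and CD30low Th17 cells, against 424 and 242 in CD30high and CD30low Th1 cells, with Cd79a below 100 in every array and Blnk the brightest, at 240 in CD30high Th17 cells. That of 6 genes of MHC class II presentation was 2759 and 1844 in CD30high and CD30low Th17 cells, against 2468 and 2571 in CD30high and CD30low Th1 cells, with 5 of the 6 at 100 or more in every array and Ciita below 100 in all. All 5 dendritic cell markers were below 100 in every array. The part of these cells, of sex and of strain in the values below was not tested, and in bulk samples fewer cells of a type and less RNA per cell cannot be told apart.

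On the deposited scaling, the immunoproteasome catalytic subunits had lower signals in Th17 cells than in Th1 cells in both CD30 gates, and the constitutive ones that they replace had higher signals; scaling each array to its median signal instead brought the immunoproteasome ratios close to 0, as given below, and left the constitutive ones above 0. Psmb8, the immunoproteasome counterpart of the chymotrypsin-like Psmb5, had a signal of 12369 in CD30high Th17 and 13469 in CD30low Th17 cells, against 16437 in CD30high Th1 and 16537 in CD30low Th1 cells. Psmb9, the counterpart of the caspase-like Psmb6, had 7609 and 9285 in CD30high and CD30low Th17 cells, against 11718 and 10692 in CD30high and CD30low Th1 cells. Psmb10, the counterpart of the trypsin-like Psmb7, had 2846 and 3495 in CD30high and CD30low Th17 cells, against 3510 and 4210 in CD30high and CD30low Th1 cells. For Psmb8 and Psmb9 both Th17 arrays lay below both Th1 arrays, and for Psmb10 the CD30low Th17 signal lay just under that of CD30high Th1 cells. The log2 ratio of Th17 over Th1 was -0.41 for Psmb8, -0.62 for Psmb9 and -0.30 for Psmb10 among CD30high cells, and -0.30, -0.20 and -0.27 among CD30low cells. By probe set disagreement the SD of a single ratio was 0.31 among CD30high and 0.29 among CD30low cells. Psmb10 in both gates and Psmb9 among CD30low cells did not exceed it, and Psmb8 among CD30low cells was about equal to it.

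The constitutive subunits ran the other way. Psmb5 had 6709 and 6967 in CD30high and CD30low Th17 cells, against 4609 and 5365 in CD30high and CD30low Th1 cells. Psmb6 had 4082 and 4211 in CD30high and CD30low Th17 cells, against 3580.0 and 3532 in CD30high and CD30low Th1 cells. Psmb7 had 1930 and 1992 in CD30high and CD30low Th17 cells, against 716 and 794 in CD30high and CD30low Th1 cells. In each of the 3 genes the lower Th17 array was above the higher Th1 array. The log2 ratio of Th17 over Th1 was 0.54 for Psmb5, 0.19 for Psmb6 and 1.43 for Psmb7 among CD30high cells, and 0.38, 0.25 and 1.33 among CD30low cells. The ratios of Psmb6 were within the SD of a single ratio in both gates. Psmb7 was thus 2.70-fold and 2.51-fold higher in Th17 cells, the highest ratio of any member in either gate. It was measured by 1 probe set, as were Psmb5, Psmb6, Psmb9 and Psmb10, so none of these ratios could be set against a second probe set.

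**Figure D1:**
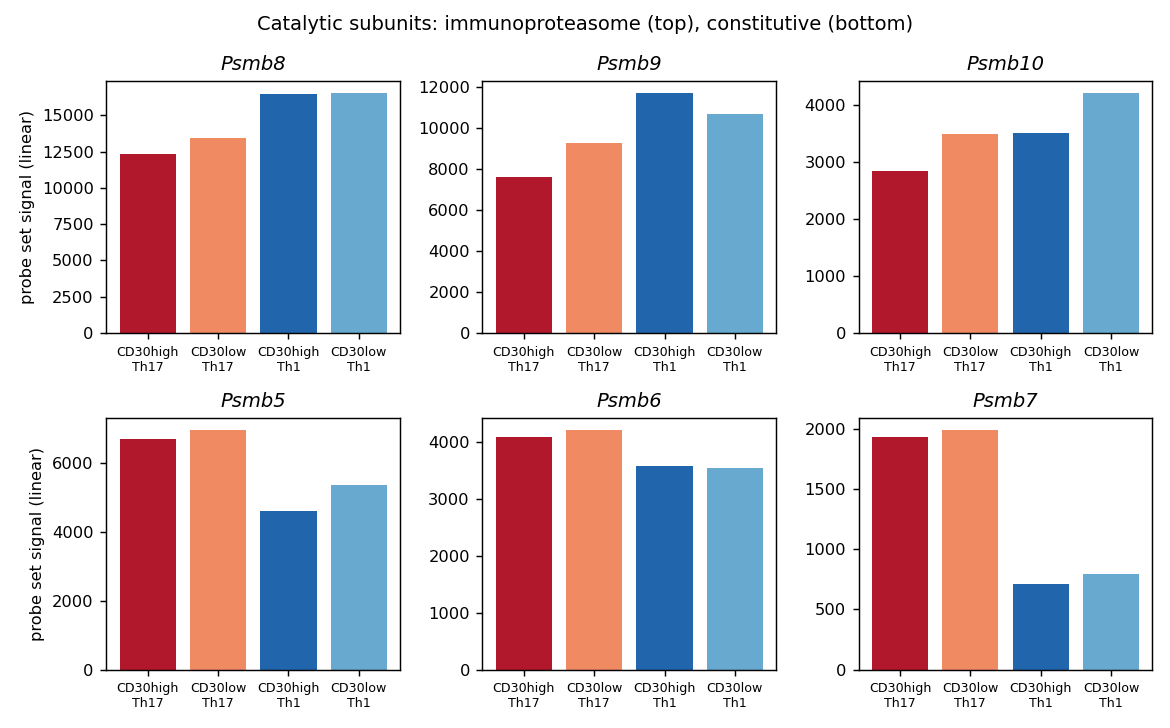
Linear probe set signal (y axis from 0, own scale in each panel) of the 3 immunoproteasome catalytic subunits (top row) and of the constitutive subunit each replaces (below it) in the 4 arrays, 1 bar per array. On the deposited scaling, the red and orange Th17 bars are below the blue Th1 bars in the top row, narrowly so for Psmb10 (3495 in CD30low Th17 against 3510 in CD30high Th1 cells), and above them in the bottom row, most of all for Psmb7.

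The median log2 ratio of the 3 immunoproteasome subunits was -0.41 among CD30high cells and -0.27 among CD30low cells, and that of the 3 constitutive subunits was 0.54 and 0.38. The difference between the medians, immunoproteasome minus constitutive, was -0.95 among CD30high cells and -0.65 among CD30low cells, or 1.93-fold and 1.56-fold. By exchange pair, the difference was -0.95 for Psmb8 minus Psmb5, -0.81 for Psmb9 minus Psmb6 and -1.73 for Psmb10 minus Psmb7 among CD30high cells, and -0.67, -0.46 and -1.60 among CD30low cells. By probe set disagreement the SD of such a difference between 2 genes was 0.44 and 0.41. All 3 pairs ran the same way in both gates, and the CD30low difference of Psmb9 and Psmb6 was about as large as that SD. The sign of the immunoproteasome median itself rested on the scaling of the arrays. When each array was divided by its median signal, the median of all genes tested became 0.47 among CD30high cells and 0.25 among CD30low cells. On that scale Psmb8, Psmb9 and Psmb10 were at 0.01, -0.20 and 0.12 among CD30high cells and at -0.06, 0.03 and -0.03 among CD30low cells, below the median of all genes in each case, whereas Psmb5, Psmb6 and Psmb7 were at 0.96, 0.61 and 1.85 among CD30high cells and at 0.62, 0.49 and 1.57 among CD30low cells. After quantile normalization all 3 immunoproteasome subunits were below 0 in both gates, and the difference of the medians was -0.86 and -0.54. Scaling by a constant cancels in that difference. A second, dimmer probe set of Psmb8, whose name marks possible cross-hybridization, read 573 and 888 in CD30high and CD30low Th17 cells, against 1054 and 568 in CD30high and CD30low Th1 cells. Its log2 ratio of Th17 over Th1 was -0.88 among CD30high cells and 0.65 among CD30low cells, and among CD30low cells its sign was opposite to that of the main probe set.

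Promoter sequence was printed for those catalytic subunits whose window held 1 of the motifs searched, since these genes are the ones that moved apart between the lineages. Windows from 250 bases before to 50 bases after the start of the transcript came from RefSeq on build GRCm38.p6, and 41 of the 49 members had one. Both strands were searched for the interferon-gamma activated site (GAS, TTCNNNGAA), the interferon-stimulated response element (ISRE, GAAANN followed by GAAA), the antioxidant response element core bound by NRF1 and NRF2 (ARE, TGACNNNGC) and the NF-kappaB consensus. Below, 130 bases before to 20 after the start are shown 5′ to 3′ on the strand of the gene, with the match in capitals. The GAS reads the same on both strands, and none of the windows shown matched a second motif.
Psmb8, chr17:34198065-34198214, plus strand: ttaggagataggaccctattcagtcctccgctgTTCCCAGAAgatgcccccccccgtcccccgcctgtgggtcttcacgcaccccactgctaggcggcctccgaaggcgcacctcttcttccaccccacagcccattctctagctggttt
Psmb5, chr14:54617976-54618125, minus strand: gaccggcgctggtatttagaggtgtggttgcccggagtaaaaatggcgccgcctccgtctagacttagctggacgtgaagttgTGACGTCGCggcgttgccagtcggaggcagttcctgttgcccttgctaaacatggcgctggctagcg
Psmb6, chr11:70525227-70525376, plus strand: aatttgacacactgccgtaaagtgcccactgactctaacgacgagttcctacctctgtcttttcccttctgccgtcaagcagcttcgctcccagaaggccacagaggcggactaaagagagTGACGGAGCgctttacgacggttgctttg
The GAS match of Psmb8 began 97 bases before the start, and the ARE matches of Psmb5 and Psmb6 began 47 and 9 bases before it. Psmb9 and Psmb10 had no match to any of the 4 motifs in their windows, and Psmb7 was not matched to a promoter. Over all members, 3 held a GAS (Psmb8, Psmd2 and Psmg1), 5 an ISRE, 6 an ARE core (Psmb5, Psmb6, Psmc6, Psmd12, Psmd9 and Psme4) and 6 an NF-kappaB consensus. Of 32851 mouse promoters of this length, 8.30% held the GAS, 3.44% the ISRE, 12.4% the ARE core and 8.46% the NF-kappaB consensus. A match is a description of the letters and not a bound site.

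Psme1, the alpha subunit of the PA28 activator that caps the core and is also induced by interferon-gamma, had signals of 9668 and 10543 in CD30high and CD30low Th17 cells, against 12968 and 13734 in CD30high and CD30low Th1 cells. Both Th17 arrays were below both Th1 arrays, with log2 ratios of -0.42 among CD30high cells and -0.38 among CD30low cells, or -0.01 and -0.14 when arrays were scaled to their median signal, which put the median of all genes at 0.47 and 0.25. Its partner Psme2 was not read, because its only probe set was annotated to a second gene as well. The promoter window of Psme1 is shown for its ISRE match, which lies on the opposite strand and begins at base 10 of the transcript.
Psme1, chr14:55578364-55578513, plus strand: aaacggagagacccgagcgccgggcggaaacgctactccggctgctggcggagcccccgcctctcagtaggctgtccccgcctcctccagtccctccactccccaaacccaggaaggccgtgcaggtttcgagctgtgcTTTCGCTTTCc
Psme3, the gamma subunit that forms a separate nuclear cap, differed from Psme1 in direction. It had 1305 and 1075 in CD30high and CD30low Th17 cells, against 960 and 835 in CD30high and CD30low Th1 cells, and log2 ratios of 0.44 among CD30high cells and 0.36 among CD30low cells.

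Transcripts of the 26S proteasome were slightly higher in Th17 cells. Over its 31 members the median log2 ratio of Th17 over Th1 was 0.37 among CD30high cells and 0.43 among CD30low cells, against 0.04 and 0.00 over all genes tested. With the mean over probe sets these 26S medians were 0.29 and 0.29, and without probe sets of suffixed names 0.29 and 0.30. On the brightest probe sets the ratio was above 0 for 28 of the 31 among CD30high cells and for 29 among CD30low cells, where 53.0% and 50.1% of all genes tested were. The members below 0 were Psma1, Psmb1 and Psmd3 among CD30high cells, and Psmd8 and Psmb1 among CD30low cells. These shifts were small for single genes. Among CD30high cells, 1 of 47 members was higher in Th17 cells by at least 2-fold (all genes 4.98%) and 6 by at least 1.5-fold (all genes 13.6%), while 0 were lower by 2-fold (all genes 6.86%) and 1 by 1.5-fold (all genes 14.9%). Among CD30low cells, 2 were higher by 2-fold (all genes 3.53%) and 9 by 1.5-fold (all genes 11.7%), while 0 were lower by 2-fold (all genes 5.83%) and 1 by 1.5-fold (all genes 13.3%). The share of members past 2-fold upward, 2.13% among CD30high cells and 4.26% among CD30low cells, was near or below that of all genes, and so was the 12.8% past 1.5-fold among CD30high cells. Among CD30low cells, the 4.26% past 2-fold, from 2 members, lay slightly above the 3.53% of all genes. The 19.1% past 1.5-fold among CD30low cells lay further above its background of 11.7%.

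**Figure D2:**
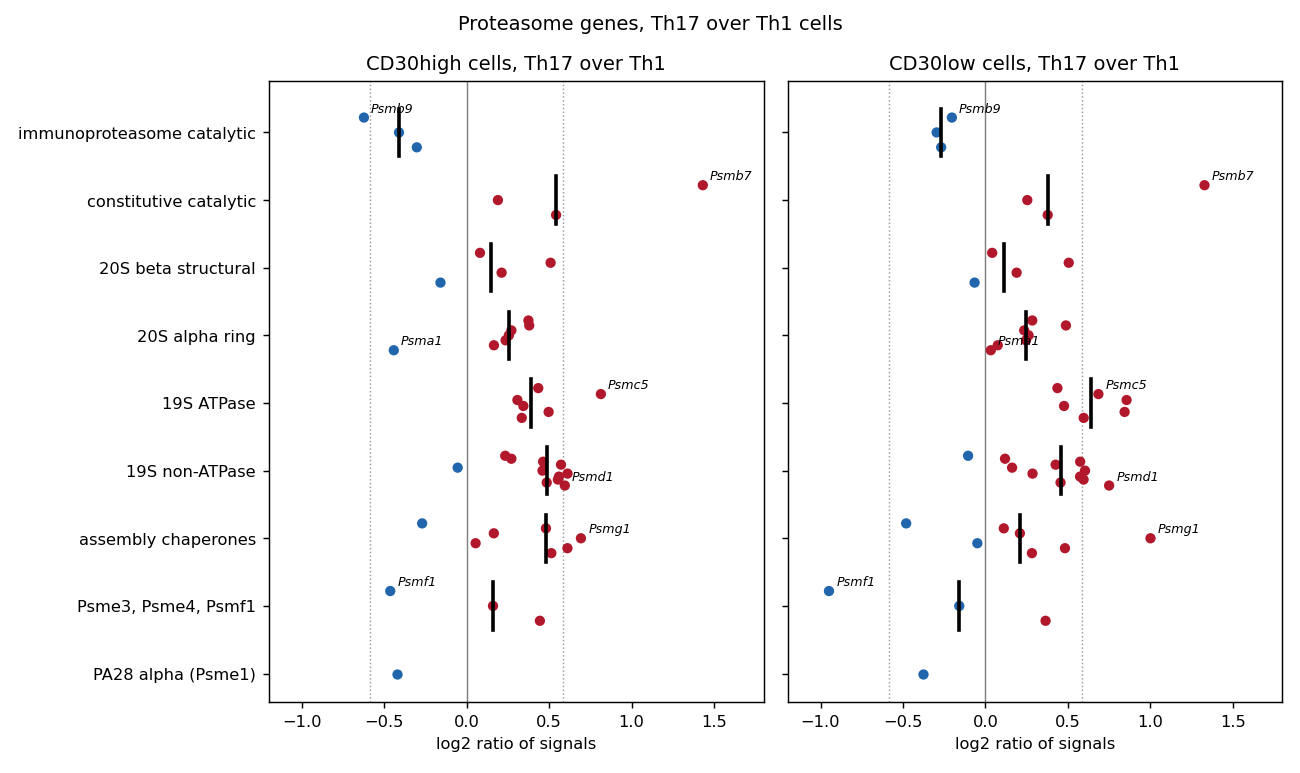
Log2 ratio of signals, Th17 over Th1, of each grouped member (1 point per gene, red at or above 0, blue below) by its role, among CD30high cells (left) and CD30low cells (right). Black bars are medians and dotted lines mark 1.5-fold. On the deposited scaling shown, the immunoproteasome subunits and Psme1 lie left of 0 in both panels, and most points of the 19S and 20S groups lie to the right, with medians of the 19S ATPases at 0.39 and 0.64.

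The 6 ATPases of the 19S base (Psmc1 to Psmc6), the ring that unfolds substrates, were all above 0 in both gates. Their median log2 ratio was 0.39 among CD30high cells and 0.64 among CD30low cells. Psmc5 had 3152 and 2971 in CD30high and CD30low Th17 cells, against 1794 and 1849 in CD30high and CD30low Th1 cells, and was 1.76-fold and 1.61-fold higher. Its Th17 and Th1 arrays were well separated and the gates hardly differed. Psmc4 had 6758 and 7727 in CD30high and CD30low Th17 cells, against 5461 and 4271 in CD30high and CD30low Th1 cells, with log2 ratios of 0.31 among CD30high cells and 0.86 among CD30low cells. A second probe set of Psmc4 gave 0.29 and 0.35, so the larger CD30low ratio was seen in 1 of its 2 probe sets. Psmc2 had 8041 and 9040 in CD30high and CD30low Th17 cells, against 5699 and 5039 in CD30high and CD30low Th1 cells, with log2 ratios of 0.50 and 0.84, and its second probe set gave 0.69 and 0.47. Psmc1 was at 0.33 and 0.60, Psmc3 at 0.34 and 0.48, and Psmc6, whose promoter holds an ARE core, at 0.43 and 0.44. No ATPase had a Th17 array below a Th1 array.

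Among the 11 other 19S subunits, 10 were above 0 in each gate, and the medians were 0.49 among CD30high cells and 0.45 among CD30low cells. Psmd1, a large scaffold of the base, had 4086 and 4111 in CD30high and CD30low Th17 cells, against 2706 and 2446 in CD30high and CD30low Th1 cells, and was 1.51-fold and 1.68-fold higher. Psmd2, the other large scaffold, had 5885 and 6150 in CD30high and CD30low Th17 cells, against 4280.2 and 4049 in CD30high and CD30low Th1 cells, with log2 ratios of 0.46 and 0.60. Psmd12, a lid subunit, had 4917 and 4489 in CD30high and CD30low Th17 cells, against 3352 and 2973 in CD30high and CD30low Th1 cells, with log2 ratios of 0.55 and 0.59. In each of these 3 genes both Th17 arrays were above both Th1 arrays. Psmd14, the deubiquitinase of the lid, had 10555 and 9661 in CD30high and CD30low Th17 cells, against 6910 and 7928 in CD30high and CD30low Th1 cells, and passed 1.5-fold only among CD30high cells with a log2 ratio of 0.61, against 0.29 among CD30low cells. Psmd4, a ubiquitin receptor, was at 0.57 and 0.43, and Psmd6, a lid subunit, at 0.46 and 0.57, while second bright probe sets gave 0.24 and 0.04 for Psmd4 and 0.11 and 0.59 for Psmd6. The low end was held by Psmd3 among CD30high cells, with a log2 ratio of -0.05, and by Psmd8 among CD30low cells, with -0.11.

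The core rings moved less than the 19S particle. The 7 alpha ring subunits had median log2 ratios of 0.26 among CD30high cells and 0.25 among CD30low cells, and the 4 structural beta subunits had 0.15 and 0.11. Psma6 was the highest of the alpha ring, with 15884 and 16274 in CD30high and CD30low Th17 cells, against 12214 and 11607 in CD30high and CD30low Th1 cells, and log2 ratios of 0.38 and 0.49. Psma1 stood apart, with 7003 and 9084 in CD30high and CD30low Th17 cells, against 9514 and 8884 in CD30high and CD30low Th1 cells. Its log2 ratio was -0.44 among CD30high cells and 0.03 among CD30low cells, so its Th17 and Th1 arrays overlapped. Of 2 much dimmer probe sets of Psma1, 1 gave -0.13 among CD30high and 0.36 among CD30low cells. The other gave -0.31 and -0.37. Psmb3 was the highest structural beta subunit, with 6969 and 7307 in CD30high and CD30low Th17 cells, against 4899 and 5150 in CD30high and CD30low Th1 cells, and log2 ratios of 0.51 and 0.50. Psmb2 was at 0.21 and 0.19, Psmb4 at 0.08 and 0.04, and Psmb1 at -0.16 and -0.07. A second bright probe set of Psmb4 gave -0.19 and 0.21, so its sign among CD30high cells was not the same on both. The catalytic Psmb7, at 1.43 and 1.33, was therefore set apart from the rest of its ring.

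Of the 7 chaperones that assemble the proteasome, 6 were above 0 among CD30high cells and 5 among CD30low cells. Psmg1, which pairs with Psmg2 to guide the alpha ring, had 2740.2 and 2918 in CD30high and CD30low Th17 cells, against 1696 and 1459 in CD30high and CD30low Th1 cells. Both Th17 arrays were above both Th1 arrays, by 1.62-fold among CD30high cells and 2.00-fold among CD30low cells. Psmg2 had log2 ratios of 0.16 and 0.21, and -0.11 and 0.13 on its second probe set. Psmg4, which acts in beta ring assembly with Psmg3, had the lowest ratios of the group, with 1060 and 1131 in CD30high and CD30low Th17 cells, against 1278 and 1578 in CD30high and CD30low Th1 cells, and log2 ratios of -0.27 and -0.48, of which the CD30high ratio became 0.15 on the median scaling, against 0.47 over all genes. Psmg3 was at 0.48 and 0.11. Of the chaperones of the 19S base, Psmd5 was at 0.61 and 0.48, Psmd10 at 0.51 and 0.28, and Psmd9 at 0.05 and -0.05.

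Psmf1, an inhibitor of the 20S core in vitro, was the only member lower by 1.5-fold among CD30low cells. It had 748 and 574 in CD30high and CD30low Th17 cells, against 1031 and 1108 in CD30high and CD30low Th1 cells, with log2 ratios of -0.46 and -0.95. Its other probe sets gave -0.14 and -0.31 among CD30high cells, and 0.04 and -0.12 among CD30low cells, so the size of the CD30low ratio rested on 1 probe set. Psme4, a large activator of the core, had log2 ratios of 0.16 among CD30high cells and -0.16 among CD30low cells. Psma8 and Psmb11, core subunits of testis and thymus, were below 100 in every array. Psmc3ip, a meiotic recombination factor that shares the symbol stem, had 599 and 536 in CD30high and CD30low Th17 cells, against 446 and 400 in CD30high and CD30low Th1 cells. Psme3ip1, which encodes a binding partner of the Psme3 protein, had log2 ratios of 0.20 and -0.05.

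The CD30high and the CD30low lineage comparisons used different arrays, so each gave a separate reading of the same question. Of the 47 members, 34 were higher in Th17 cells in both gates (72.3%) and 7 were lower in both (14.9%), against 38.1% and 35.5% of 7609 genes tested in both gates. The 7 lower in both on the deposited scaling were Psmb8, Psmb9, Psmb10, Psme1, Psmf1, Psmg4 and Psmb1. Members past 1.5-fold upward in both gates were Psmb7, Psmc5, Psmd1 and Psmg1, or 8.51% of members against 5.43% of all genes. Across the 47 genes the 2 ratios had a Pearson r of 0.85 and a Spearman rho of 0.84, and across all 7609 genes 0.75 and 0.65. Genes are not independent replicates, and the sources do not say whether both gates of a lineage were sorted from 1 culture.

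**Figure D3:**
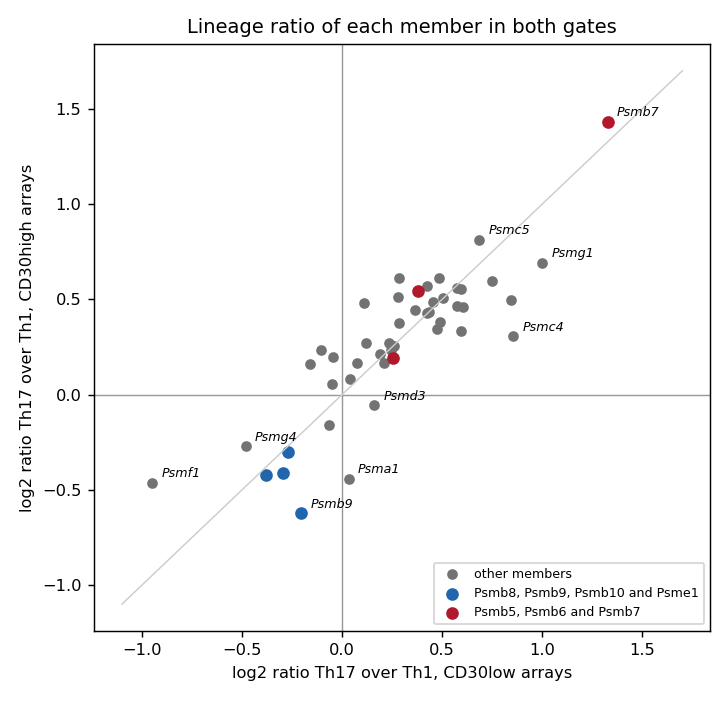
Log2 ratio of Th17 over Th1 among CD30high arrays (y axis) against the same ratio among CD30low arrays (x axis), 1 point for each of the 47 members with signal, with the line of equal ratios in grey. On the deposited scaling, the immunoproteasome subunits and Psme1 (blue) share the lower left with Psmf1 and Psmg4, Psmb7 lies far to the upper right, and Psma1 is off the line at 0.03 and -0.44.

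On the brightest probe sets, CD30high and CD30low cells hardly differed in proteasome transcripts. In Th17 cells 0 of 47 members were higher in CD30high cells by 2-fold (all genes 3.94%) or by 1.5-fold (all genes 9.52%), and 0 were lower by 2-fold (all genes 3.66%) or by 1.5-fold (all genes 9.12%). In Th1 cells the counts were also 0, against 0.794% of all genes higher and 0.486% lower by 2-fold, and 4.04% higher and 3.57% lower by 1.5-fold. The median log2 ratio of CD30high over CD30low over the 31 members of the 26S proteasome was -0.04 in Th17 cells and 0.02 in Th1 cells, against 0.01 and -0.03 over all genes tested. Their ratios spread with an SD of 0.13 over genes in Th17 cells and 0.14 in Th1 cells, less than the 0.20 and 0.23 by which probe sets of 1 gene disagreed. Ratios of this size were not separable from probe behaviour in these arrays.

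**Figure D4:**
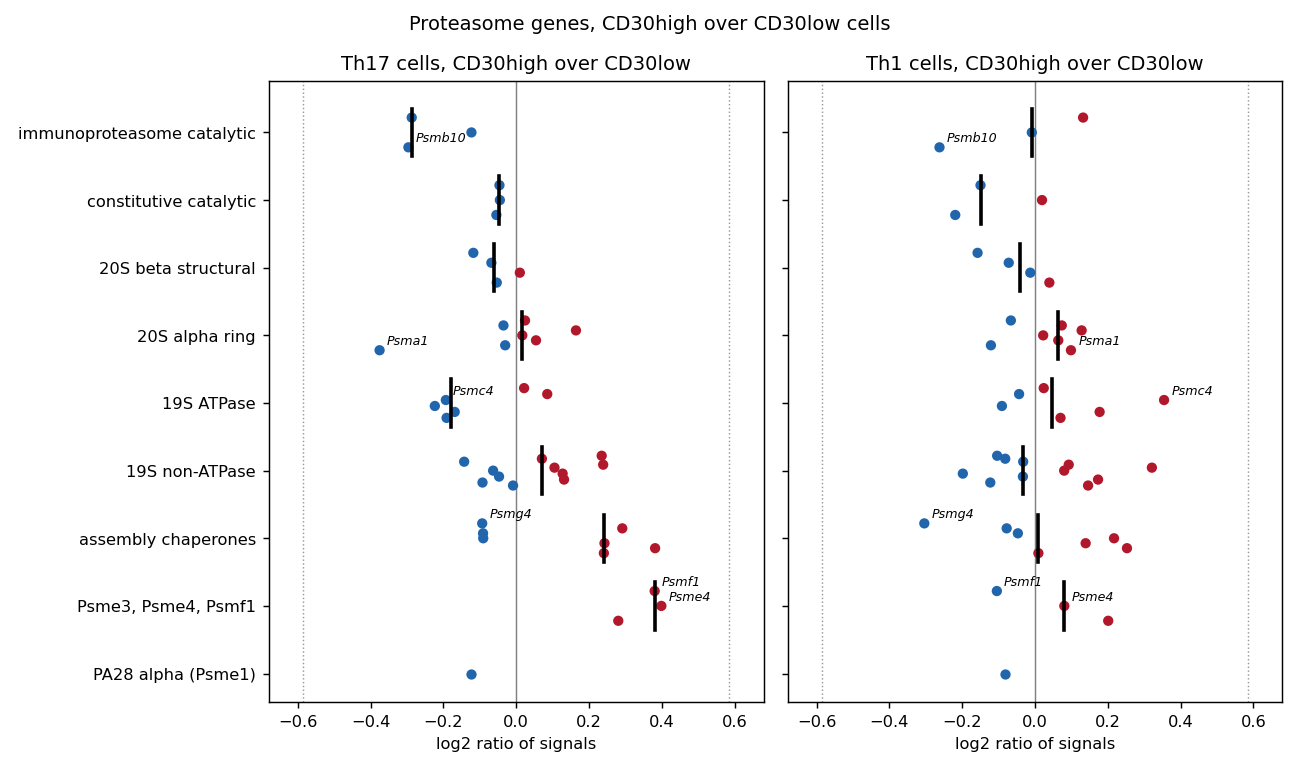
Log2 ratio of signals, CD30high over CD30low, of each grouped member by its role in Th17 cells (left) and Th1 cells (right), 1 point per gene, red at or above 0 and blue below, with black bars at medians and dotted lines at 1.5-fold. No point passes 1.5-fold, and the extremes are -0.38 for Psma1 and 0.40 for Psme4 in Th17 cells and -0.30 for Psmg4 and 0.35 for Psmc4 in Th1 cells. Points are brightest probe sets, and 2 much dimmer ones of Psma1 gave 0.08 and -0.22 in Th17 cells.

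Among the catalytic subunits, all 6 were slightly lower in CD30high than in CD30low Th17 cells on their brightest probe sets. The log2 ratio in Th17 cells was -0.12 for Psmb8, -0.29 for Psmb9 and -0.30 for Psmb10, and -0.05, -0.04 and -0.05 for Psmb5, Psmb6 and Psmb7. In Th1 cells it was -0.01, 0.13 and -0.26 for the immunoproteasome subunits and -0.22, 0.02 and -0.15 for Psmb5, Psmb6 and Psmb7. The second, dimmer probe set of Psmb8 gave -0.63 in Th17 cells and 0.89 in Th1 cells, both past 1.5-fold. The CD30 ratio of Psmb8 therefore depended on the probe set. The difference of the medians, immunoproteasome minus constitutive, was -0.24 in Th17 cells and 0.14 in Th1 cells. By exchange pair it was -0.07 for Psmb8 minus Psmb5, -0.24 for Psmb9 minus Psmb6 and -0.25 for Psmb10 minus Psmb7 in Th17 cells, and 0.21, 0.11 and -0.11 in Th1 cells, and the SD of such a difference by probe set disagreement was 0.28 and 0.32. Psme1 was at -0.13 in Th17 cells and -0.08 in Th1 cells.

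The other members with the widest CD30 ratios had different roles. Psme4 had 4594 in CD30high Th17 against 3484 in CD30low Th17 cells, and 4113 in CD30high Th1 against 3890 in CD30low Th1 cells. Its log2 ratio in Th17 cells was 0.40, and 2 other bright probe sets of Psme4 gave 0.58 and 0.60, so this gene read higher in CD30high Th17 cells on each of the 3. In Th1 cells the same probe sets gave 0.08, 0.16 and 0.00. On the deposited scaling, Psme3 was at 0.28 in Th17 cells and 0.20 in Th1 cells, and the base chaperone Psmd5 at 0.38 and 0.25. A dimmer probe set of Psme3 gave 0.11 in Th17 cells and -0.10 in Th1 cells. Dividing each array by its median signal moved the median of all genes in the Th1 comparison by -0.24, about the size of these Th1 ratios. Psmf1 was at 0.38 in Th17 cells, but its other probe sets gave 0.21 and -0.13. Psmc4 had the lowest Th17 minus Th1 difference of CD30 ratios, -0.55, and Psmf1 the highest, 0.49, with a median of 0.00 over the 47 members. Both extremes rested on 1 probe set, since the second probe set of Psmc4 was at -0.04 in Th17 cells and 0.01 in Th1 cells, and the other probe sets of Psmf1 were lower in Th17 cells (0.21 and -0.13) than in Th1 cells (0.39 and 0.05). Among the ATPases the CD30 ratio in Th17 cells ran between -0.22 for Psmc3 and 0.09 for Psmc5.

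Genes that work with the proteasome but lack the symbol were read as lists. Of 7 further subunits and partners, all were above 0 for Th17 over Th1 among CD30high cells, with a median log2 ratio of 0.52, and 5 among CD30low cells, with a median of 0.15. The deubiquitinase Uchl5 had 6170 and 5492 in CD30high and CD30low Th17 cells, against 4212 and 3082 in CD30high and CD30low Th1 cells, and was 1.46-fold and 1.78-fold higher. The other proteasome-bound deubiquitinase, Usp14, had log2 ratios of 0.52 and 0.49. Both ran in the direction of most 19S subunits with the symbol. Sem1, a 19S subunit without it, hardly moved, with log2 ratios of 0.04 and -0.05. Pomp was at 0.48 and 0.12, and Akirin2 at 0.24 and 0.20. Ecpas, a proteasome adaptor, was 1.59-fold higher in CD30high than in CD30low Th17 cells, with 2706 against 1701, but had 1882 and 1928 in CD30high and CD30low Th1 cells. The ubiquitin ligase Ube3c had 794 and 574 in CD30high and CD30low Th17 cells, against 504 and 517 in CD30high and CD30low Th1 cells. Of 6 ubiquitin shuttles and related genes, the highest lineage ratio was 0.49 for Ubqln1 among CD30high cells.

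Of the NRF1 pathway, which raises proteasome transcription when proteasome activity is short, 6 genes were bright enough to test. Their median log2 ratio of Th17 over Th1 was -0.13 among CD30high cells and -0.12 among CD30low cells. Ngly1, which removes glycans from NRF1 during its activation, had 2526 and 4860 in CD30high and CD30low Th17 cells, against 6638 and 7134 in CD30high and CD30low Th1 cells. It was the lowest of the list, 2.63-fold lower in Th17 cells among CD30high cells and 1.47-fold lower among CD30low cells. The gene of NRF1 itself, Nfe2l1, had 583 and 564 in CD30high and CD30low Th17 cells, against 629 and 477 in CD30high and CD30low Th1 cells, and its lineage ratios of -0.11 and 0.24 differed in sign. Nfe2l2, which encodes NRF2, had 1505 and 1281 in CD30high and CD30low Th17 cells, against 864 and 1001 in CD30high and CD30low Th1 cells. Its log2 ratios were 0.80 and 0.36.

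Genes of the MHC class I pathway, which uses immunoproteasome peptides, were mostly lower in Th17 cells on the deposited scaling. Of 12 genes, 10 had a log2 ratio of Th17 over Th1 below 0 among CD30high cells and all 12 did among CD30low cells, with medians of -0.44 and -0.32, against 0.04 and 0.00 over all genes tested. When arrays were scaled to their median signal, 6 of 12 were above 0 in each gate and the medians were -0.02 and -0.08, on a scale where the median of all genes was 0.47 and 0.25. Past 1.5-fold, 5 were lower (all genes 14.9%) and 0 higher (all genes 13.6%) among CD30high cells, and 3 were lower (all genes 13.3%) and 0 higher (all genes 11.7%) among CD30low cells. Tap1, a subunit of the peptide transporter, had 1721 and 2883 in CD30high and CD30low Th17 cells, against 3452 and 3970 in CD30high and CD30low Th1 cells. It lies between Psmb9 and Psmb8 in the order of genes in RefSeq, with H2-DMb1 before and Tap2 after. Along this stretch the log2 ratios among CD30high cells were -0.62 for Psmb9, -1.004 for Tap1, -0.41 for Psmb8 and -0.12 for Tap2, and among CD30low cells -0.20, -0.46, -0.30 and -0.19. The heavy chain H2-K1 had 15149 and 18135 in CD30high and CD30low Th17 cells, against 32323 and 31945 in CD30high and CD30low Th1 cells. H2-D1 had log2 ratios of -0.997 and -0.86, and the class I transactivator Nlrc5 had -1.05 and -0.42. Probe sets of class I heavy chains can read more than 1 of these near-identical genes, and their alleles differ between mouse strains, which the labels do not give. Calr, a chaperone of the endoplasmic reticulum, was the highest of the list, at 0.43 and -0.02.

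Of the 5 related lists, the interferon-gamma list held the widest lineage differences. Ifng had 76.0 and 106 in CD30high and CD30low Th17 cells, against 3423 and 2506 in CD30high and CD30low Th1 cells, and so was at least 34.2-fold lower in CD30high Th17 cells by the floor of 100 and 23.6-fold lower in CD30low ones. Ifngr1, the ligand-binding receptor chain, had 1778 and 3259 in CD30high and CD30low Th17 cells, against 7896 and 8907 in CD30high and CD30low Th1 cells. The other chain, Ifngr2, ran the other way, with 636 and 855 in CD30high and CD30low Th17 cells, against 94.7 and 110 in CD30high and CD30low Th1 cells, at least 6.36-fold higher among CD30high cells by the floor. The feedback inhibitor Socs1 was also higher in Th17 cells, by 3.69-fold and 4.51-fold, and so was the receptor kinase Jak2, by 2.07-fold and 2.64-fold. The transcription factors Irf1 and Irf8 were lower, with log2 ratios of -1.15 and -2.04 among CD30high cells and -0.70 and -1.13 among CD30low cells. In CD30high against CD30low Th17 cells, the 8 genes of this list bright enough to test were all below 0. Their median log2 ratio was -0.55, with Irf1 the lowest at -0.96, Ifngr1 at -0.87 and Socs1 the highest at -0.24. Tap1 of the class I list was at -0.74. Psmb8, Psmb9 and Psmb10 lay between -0.30 and -0.12 on their brightest probe sets, and the second probe set of Psmb8 was at -0.63.

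**Figure D5:**
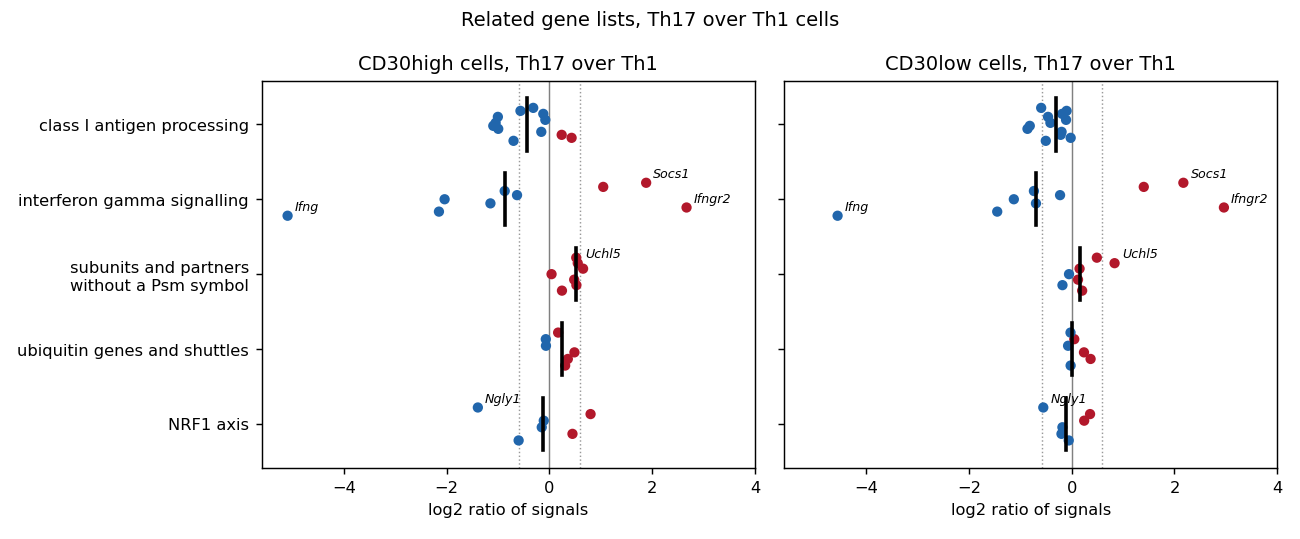
Log2 ratio of signals, Th17 over Th1, of genes in 5 related lists among CD30high cells (left) and CD30low cells (right), 1 point per gene with a signal of 300 in 1 of the pair, red at or above 0 and blue below, with black bars at medians and dotted lines at 1.5-fold. On the deposited scaling shown, the class I list lies mostly left of 0 (medians -0.44 and -0.32), and the interferon-gamma list spreads between Ifng and Ifngr2, whose ratios in the left panel, -5.10 and 2.67, are bounds because the dimmer signal was under the floor of 100.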

How the data were processed

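Total RNA of 4 sorted populations, 1 array each, was labelled with the GeneChip 3' IVT Express Kit and hybridized to Affymetrix whole-genome mouse arrays by the authors. The deposited intensity values were linear probe set signals, credited to GeneChip Operating Software in the methods and to Affymetrix Expression Console in the processing notes; versions, summary algorithm and scaling target: not given in the sources used here. On each array the mean without the lowest and highest 2% was 497, so the values cannot show a shift shared by the whole transcriptome. Of 45037 probe sets, 34945 had 1 symbol in the platform annotation (34741 of them current in RefSeq) and 932 had several and were not used. The array number limits precision, and no detection calls were used. Groups came from sample titles.

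Signals under 100 were set to 100, ratios were taken between arrays, and a gene was tested where the brighter array had 300, with limits of 2-fold and 1.5-fold. The self-test on simulated signals recovered the changed genes, which were bright and changed by more than the 2-fold limit. It checked the code and cannot show whether smaller shifts, such as those of most members, would be found. Alternatives were 2 scalings, 2 floors, 2 probe set rules and other limits. Genes were named by role (catalytic subunits, activators and inhibitor), by passing 1.5-fold, as the extremes of a subcomplex, or, of the related lists, by passing 2-fold or as the 2 widest; the remaining members were added to complete their groups. Members and lists were chosen with earlier results of these data known. Python 3.11.15, numpy 2.4.6, pandas 2.3.3 and matplotlib 3.10.9 were used.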

Additional observations from a re-analysis of the deposited data

Results flagged for a closer look

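Irf8, a transcription factor of the interferon-gamma list, and Keap1, the inhibitor of NRF2, differed in direction between the lineages in the CD30 comparison. The log2 ratio of CD30high over CD30low was -0.24 in Th17 cells and 0.67 in Th1 cells for Irf8, and -0.21 in Th17 cells and 0.33 in Th1 cells for Keap1. With 1 array per group the difference was not tested.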

How the results depend on the processing

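No paired analysis was possible because each group had 1 array. Of the medians and differences recomputed under the alternatives, 102 stayed within the probe set SD of the reported value, 5 moved and 1 reversed. Of the counts of members, 65 stayed and 7 moved. Both floors lay below every member tested, so these 2 settings could not move any result, yet they add to the unmoved totals. The alternative signal limits changed no count either. Dividing each array by its median signal moved the median of all genes by -0.24 (CD30, Th1), -0.05 (CD30, Th17), 0.44 (lineage, CD30high) and 0.25 (lineage, CD30low). Under it the immunoproteasome median of Th17 over Th1 among CD30high cells was 0.0082 in place of -0.41, the constitutive median 0.96 and the 26S median 0.79, and in Th1 cells the CD30 medians were -0.24, -0.38 and -0.21. It gave 6 members higher by 2-fold among CD30high cells and 4 among CD30low cells. Quantile normalization gave 1 among CD30low cells, Psmg1 lying at the limit. At 1.5-fold, 6 were higher and 1 lower among CD30high cells, and 9 higher and 1 lower among CD30low cells. The immunoproteasome minus constitutive difference ran between -1.16 and -0.86 (lineage, CD30high), -0.65 and -0.54 (lineage, CD30low), -0.25 and -0.16 (CD30, Th17) and 0.14 and 0.28 (CD30, Th1). Median scaling cancels in this difference and the floors lie below these genes, so only quantile normalization, the mean over probe sets and leaving out genes could move it. Leaving out Psmb7 and Psmb10 was chosen after seeing the data. Genes under 100 in both arrays could not be compared.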
